A study of Mus musculus with 28 samples.

Results

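Subclones 3 and 5 of the mouse kidney cell line mIMCD-3 were examined for how far their replicate RNA-seq libraries lay apart, for which genes and functions moved together between those replicates, and along which axis. The 2 lines were selected on this spread, the SD of log2 TPM among 4 replicates, which was larger than in subclones 1, 2 and 4, so its size describes the selection and was not tested. They hold 8 of the 28 libraries of the series. The spread was taken over 9294 protein-coding genes with an abundance of at least 5 TPM, the unit of relative transcript number explained below, in all 20 libraries of the 5 subclones, out of 45706 genes listed. The genes nearest to that limit were Rab2b and Tcp11l1 inside it, both with a lowest value of 5.0 TPM, and Slc35d2 and Asap3 outside it, both with a lowest value of 4.99 TPM.

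The mIMCD-3 line derives from the inner medullary collecting duct of a mouse carrying SV40 early genes. A single sorted cell gave the monoclonal wild-type line WT5, and single sorted cells of WT5 gave subclones 1 to 5, so each subclone is 1 clone of unedited, untreated cells. All cells grew in DMEM:F12 medium with 10% serum, at 37°C and 10% CO2, and were lysed for RNA 4 days after the cultures were confluent. The parental polyclonal line and WT5 were read out in a separate table with 4 libraries each. The labels number the replicates from 1 to 4 without saying whether they were separate cultures. The methods call replicates of the cell lines biological, whereas a legend on the polyclonal line and WT5 calls theirs technical, so culture and technical spread cannot be told apart here. Of 18 collecting duct and epithelial markers, 12 were at 1 TPM or more in every library of subclones 3 and 5, among them Krt8, Krt18, Cdh1, Epcam, Pax2 and Pax8. The water channel Aqp2 was listed at 0 in all of them. The other markers of the list, Avpr2, Scnn1a, Gata2, Gata3 and Elf5, were below 1 TPM in at least 1 of these libraries. The summed level of fibroblast, endothelial, leukocyte and erythroid markers stayed between 0 and 2.66 TPM per list in these 8 libraries.

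TPM divides the reads of a gene by its transcript length and scales every library to the same total. A rise of a few very abundant transcripts therefore lowers the TPM of all others. Genes for ribosomal proteins, respiratory chain subunits and proteasome subunits encode small proteins, have short transcripts and are abundant in most cells. Genes for chromatin regulators, matrix proteins and cytoskeletal linkers often have very long transcripts. Immediate early genes are transcribed within minutes of serum, stretch or handling and have short-lived mRNAs.

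In subclone 3, the median gene had an SD of log2 TPM of 0.150 among the 4 replicates, and in subclone 5 of 0.156. The corresponding values were 0.0768 in subclone 1, 0.1002 in subclone 2 and 0.0824 in subclone 4. An SD of this size equals a typical deviation of 10.9% and 11.4% of a gene's TPM in subclones 3 and 5, against 5.47% to 7.19% in the other subclones. Pooled over subclones 3 and 5, the median SD was 0.157, against 0.0947 over subclones 1, 2 and 4, a ratio of 1.65. The pooled SD was larger in subclones 3 and 5 for 8031 genes, or 86.4%. The ratio ranged from 1.60 to 1.75 when genes were divided into 5 equal classes of TPM, so the wider spread was present at every level of expression. WT5, measured in the other table, had a median SD of 0.0638 over 9282 of the same genes, and the polyclonal line had 0.0985.

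**Figure D1:**
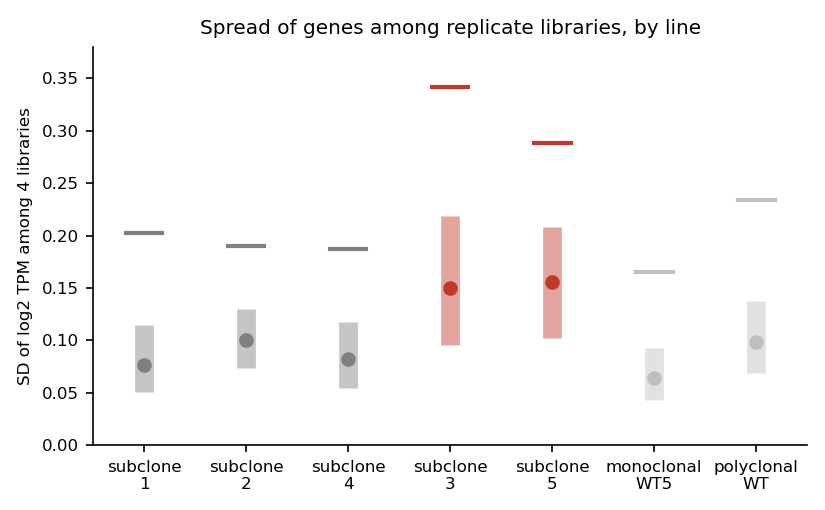
SD of log2 TPM among the 4 replicate libraries of each line, on the y axis. Points are the median gene, thick bars the middle 50% of genes and horizontal marks the 95th percentile. Subclones 3 and 5 (red) have medians of 0.150 and 0.156, above the other lines, and WT5 and polyclonal cells (light grey) come from a separate table.

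The wide spread was general and shallow. An SD of 0.5 or more was reached by 65 genes in subclone 3 and 17 in subclone 5, against 12, 14 and 15 in subclones 1, 2 and 4. Only 4 of the 9294 genes, or 0.043%, reached it in both subclones 3 and 5, and they were Arc, D430042O09Rik, Gm14325 and Lars2. The other 9 pairs of subclones shared 2 to 8 such genes, so a count of 4 is not particular to this pair. The genes in the top 4.99% of SD overlapped by 39.9% of each list between subclones 3 and 5, and by 40.1% between subclones 1 and 3.

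In each subclone, 1 library lay farther from the mean than the others. Replicate 2 held 46.7% of the summed squared deviations of subclone 3, and replicate 1 held 56.9% of those of subclone 5. Replicate 2 of subclone 3 held the lowest of the 4 values for 65.5% of genes, and replicate 1 of subclone 5 for 74.1%. Their median deviations from their own subclone's mean were −0.14 and −0.19 on the log2 scale over all genes, whereas the other 6 libraries lay between −0.0022 and 0.092. The deviations of these 2 libraries correlated with r = 0.78 across genes, which are not independent replicates. Replicate 1 of subclone 3 and replicate 2 of subclone 5 deviated the opposite way, with r = 0.67 between them. Deviations from a subclone's mean cancel out over its libraries, so a far library in itself sets the others partly the opposite way. When the 2 lowest libraries were left out, the ratio of the median SD fell to 1.04, and when the library farthest from its mean was left out of each of the 5 subclones it was 1.34. Subclone 3 without that library still had a median SD of 0.106, above the 0.0544 to 0.0771 of the other 4 subclones treated in the same way, and subclone 5 then lay level with subclone 2.

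These deviations followed a single axis. In a principal component analysis of the 8 libraries, each centred on its subclone, the first component took 76.3% of the variance and the second 9.01%. The scores on this axis were 0.89, −1.57, −0.35 and 1.02 for replicates 1 to 4 of subclone 3. They were −1.57, 0.82, 0.086 and 0.66 for replicates 1 to 4 of subclone 5. Replicate 2 of subclone 3 and replicate 1 of subclone 5 thus stood at the same end, without sharing a replicate number. Within a single subclone the first component took 83.1% of the variance in subclone 3 and 81.3% in subclone 5, against 48.1% to 64.5% in subclones 1, 2 and 4. With the 2 lowest libraries left out, the joint share was 59.1%.

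The axis ran in part along transcript length. The loading of a gene, its log2 change per unit of score, correlated across genes with the log2 length of its longest annotated transcript (r = 0.60) and with its coding length (r = 0.66). The correlation was weaker with genomic length (r = 0.38), GC content (r = 0.20), TPM (r = −0.34) and the number of annotated retained-intron transcripts (r = 0.22). The median longest transcript rose from 1647 bases in the 10% of genes with the lowest loadings to 5742 bases in the 10% with the highest. With each library's trend on transcript length removed, the first component of the 8 libraries still took 60.7% of the variance. Its loadings were then nearly unrelated to length (r = −0.041), and the ratio of the median SD was 1.35. In replicate 2 of subclone 3, transcripts under 1000 bases had a median deviation of 0.14 and those of 8000 bases or more −0.35. In replicate 1 of subclone 5 the same classes had 0.16 and −0.34. Replicates 1 and 4 of subclone 3 and replicates 2 and 4 of subclone 5 sloped the other way, with 0.14 to 0.20 for the longest class, and replicate 3 was nearly flat in both subclones. Part of the opposite slope follows from taking deviations from each subclone's own mean.

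**Figure D2:**
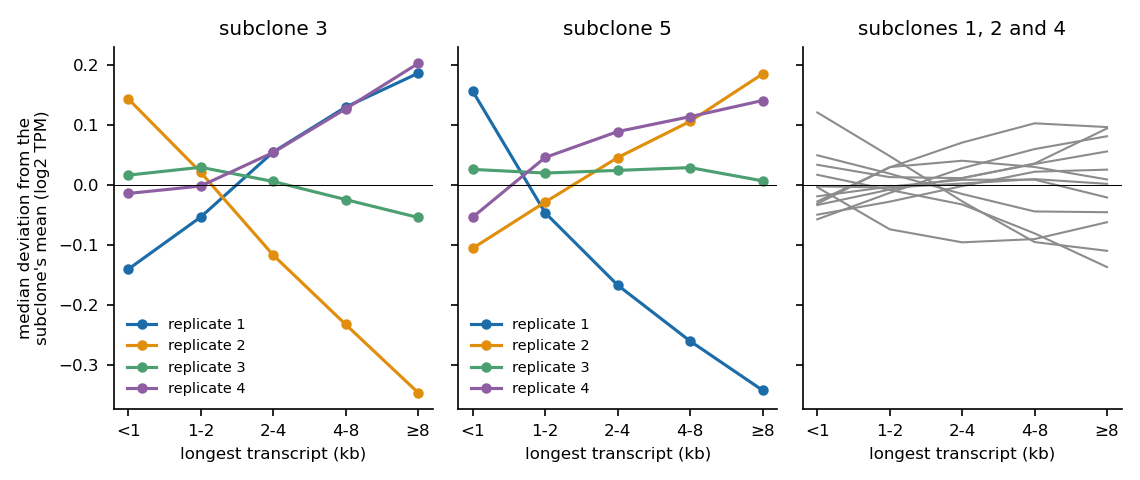
Median deviation of log2 TPM from the subclone's own mean (y axis) in 5 classes of the longest annotated transcript (x axis, kb), with 1 line per library. Replicate 2 of subclone 3 and replicate 1 of subclone 5 fall to −0.35 and −0.34 for transcripts of 8 kb or more, while the 12 libraries of subclones 1, 2 and 4 stay between −0.14 and 0.096 in that class.

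The contrast between the longest 20% and the shortest 20% of genes was 0.23, −0.33, −0.065 and 0.17 in replicates 1 to 4 of subclone 3. It was −0.29, 0.18, 0.0023 and 0.0975 in those of subclone 5. The range of this contrast over the replicates was 0.56 in subclone 3 and 0.47 in subclone 5, against 0.16, 0.16 and 0.26 in subclones 1, 2 and 4, 0.13 in WT5 and 0.30 in the polyclonal line. Removal of 276 genes for both ribosomes, the respiratory chain and the proteasome left a mean range of 0.47 in subclones 3 and 5, so the length trend held among the remaining 9018 genes. Without the 2 lowest libraries the mean range was 0.23. The spread ratio between the 2 sets of subclones was highest for the longest transcripts, at 2.30 for 8000 bases or more, and lowest for 1000 to 2000 bases, at 1.36.

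Nuclear genes of 4 lists with short transcripts and high abundance stood mostly at the negative end of the axis. That is, they were high in replicate 2 of subclone 3 and replicate 1 of subclone 5. A loading below 0 was found for 2145 of 9294 genes, or 23.1%. It was found for 81 of 83 cytosolic ribosomal proteins, 70 of 79 nuclear-encoded subunits of the respiratory chain, 33 of 37 proteasome subunits and 61 of 77 mitochondrial ribosomal proteins. With the medians of all libraries set equal, 50.1% of all genes had a loading below 0, and the same 4 lists had 83, 78, 35 and 76 members below 0. Genes of the mitochondrial genome, also short and abundant, had 2 of 12 loadings below 0, and 3 of 12 with equal medians.

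The cytosolic ribosomal proteins, relative to the median of all genes, deviated by −0.24, 0.32, 0.024 and −0.10 on the log2 scale in replicates 1 to 4 of subclone 3. In subclone 5 the deviations were 0.38, −0.14, −0.0058 and −0.21. The range of a list's deviation over 4 replicates, averaged over the subclones, is called its swing below. It was 0.57 for ribosomal proteins in subclones 3 and 5 and 0.23 in subclones 1, 2 and 4. Together these transcripts made up 20.4% of the TPM total in replicate 2 of subclone 3 and 21.2% in replicate 1 of subclone 5, against 15.6% to 18.3% in the other 6 libraries. The part of this share in the low median of the other genes was not tested. Rpl36, a protein of the large ribosomal subunit, was at 2811, 4364, 3472 and 3829 TPM in replicates 1 to 4 of subclone 3 and at 4855, 2913, 3491 and 2957 TPM in those of subclone 5. Rps15a of the small subunit was at 599, 904, 775 and 749 TPM in subclone 3 and at 1150, 655, 1002 and 652 TPM in subclone 5. The swing of the ribosomal proteins depended on the treatment of the values. It fell to 0.22 once each library's trend on transcript length was removed, against 0.11 in subclones 1, 2 and 4. Under quantile normalization, which fixes the top of each distribution, it was 0.15, against 0.096.

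The respiratory chain list had a swing of 0.50 in subclones 3 and 5, against 0.17 in subclones 1, 2 and 4. With the length trend removed, the swings were 0.15 and 0.039. Under quantile normalization the swings were 0.27 and 0.12. Ndufb8, a subunit of complex I, was at 429, 660, 527 and 475 TPM in subclone 3 and at 693, 435, 494 and 427 TPM in subclone 5. It was highest in the same 2 libraries as Rpl36. Ndufc1, another subunit of complex I, was at 115, 194, 217 and 215 TPM in subclone 3 and at 206, 167, 209 and 195 TPM in subclone 5, an order that differed between the subclones. Mitochondrial ribosomal proteins, which translate the mitochondrial genome, had a swing of 0.42, against 0.15 in subclones 1, 2 and 4. After length removal the swings were 0.20 and 0.085, and under quantile normalization 0.35 and 0.13. Mrps16, a member of their small subunit, was highest in replicate 2 of subclone 3 (111 TPM, against 62.4 to 88.1) and in replicate 1 of subclone 5 (105 TPM, against 61.3 to 82.97). The proteasome, which degrades ubiquitinated proteins, had a swing of 0.42, against 0.15 in subclones 1, 2 and 4. The swings were 0.24 and 0.070 after length removal, and 0.25 and 0.10 under quantile normalization. Psma6 of its core was at 310, 430, 372 and 299 TPM in subclone 3 and at 332, 248, 270 and 223 TPM in subclone 5.

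**Figure D3:**
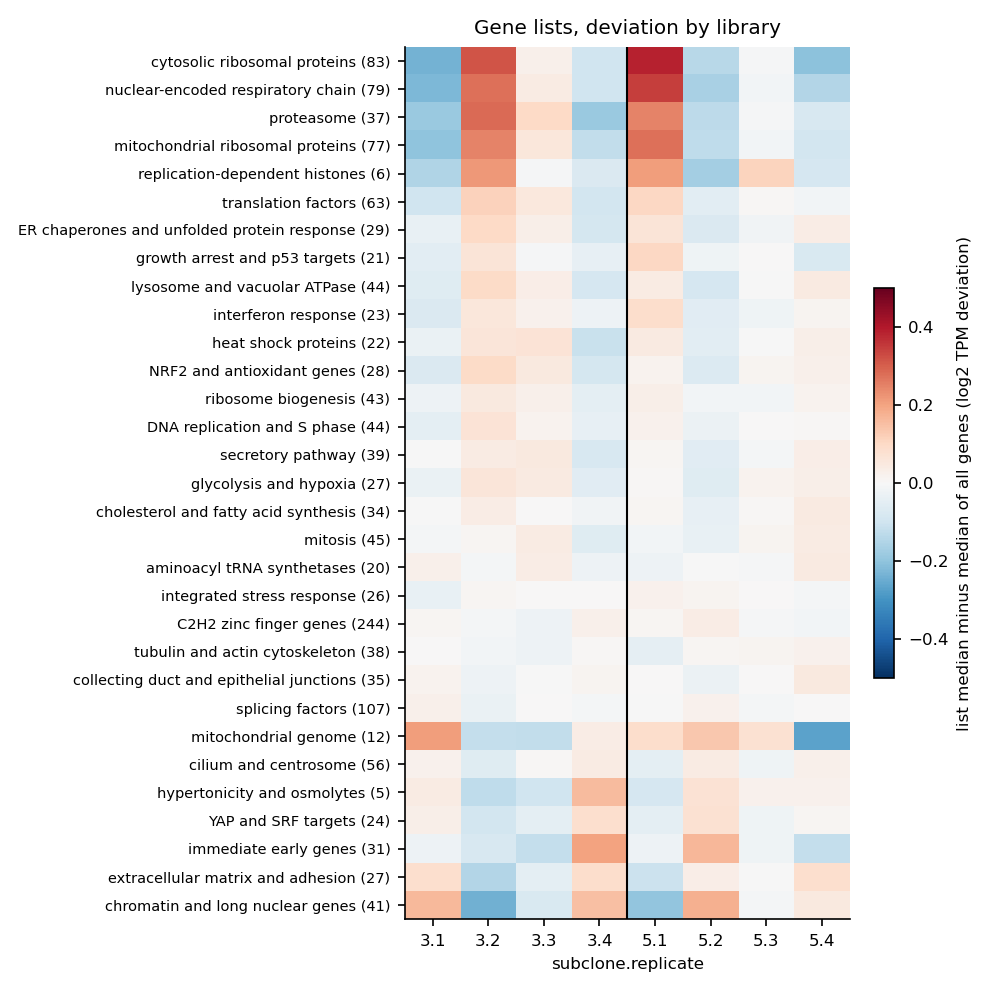
Median log2 TPM deviation of 31 gene lists minus that of all genes (colour) in the 8 libraries of subclones 3 and 5 (columns, subclone.replicate). Rows are ordered by median loading, with the number of genes in brackets. Ribosomal proteins reach 0.32 and 0.38 in replicate 2 of subclone 3 and replicate 1 of subclone 5, where chromatin genes are at −0.24 and −0.20, and translation factors at 0.12 and 0.10.

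Chromatin regulators had loadings above 0. Their list was put together partly for long nuclear genes (median longest transcript 9037 bases), so its place on an axis of length was fixed by that choice and is given as a description. None of the 41 chromatin regulators measured had a loading below 0, against 23.1% of all genes. With equal medians 1 of them did, against 50.1% of all genes. Their deviations were 0.16, −0.24, −0.076 and 0.15 in subclone 3 and −0.20, 0.18, −0.0085 and 0.051 in subclone 5. The swing was 0.39, against 0.15 in subclones 1, 2 and 4. With the length trend removed, the swings were 0.10 and 0.054, and under quantile normalization 0.38 and 0.14. Huwe1, a large ubiquitin ligase (GRCm38 chrX:151800807-151935417, longest transcript 14579 bases), was at 42.7, 20.4, 30.8 and 42.9 TPM in subclone 3 and at 20.2, 43.4, 29.4 and 37.5 TPM in subclone 5. In subclones 1, 2 and 4 it lay between 26.3 and 37.9 TPM, so both low libraries and 3 high ones were outside that range. Kmt2c, a histone H3 methyltransferase, was at 13.5, 8.42, 9.48 and 12.3 TPM in subclone 3 and at 7.10, 14.3, 8.60 and 10.5 TPM in subclone 5.

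Matrix and adhesion genes had 2 of 27 loadings below 0, against 23.1% of all genes, and 4 of 27 with equal medians, against 50.1%. Their swing was 0.21, against 0.17 in subclones 1, 2 and 4. By subclone it was 0.19 in subclones 1, 2 and 5, 0.23 in subclone 3 and 0.11 in subclone 4. With the length trend removed, the order turned, with 0.089 in subclones 3 and 5 and 0.11 in subclones 1, 2 and 4. Under quantile normalization it did not turn, with 0.26 and 0.17. Agrn, the heparan sulphate proteoglycan agrin, was lowest in replicate 2 of subclone 3 at 137.82 TPM (179 to 275 in the others) and in replicate 1 of subclone 5 at 163 TPM (210 to 263). Lama5, a laminin chain of kidney basement membranes, had the same lowest libraries, at 41.1 and 51.4 TPM. Dst, a giant linker of intermediate filaments with the longest transcript among the genes named here (23279 bases), was at 27.8, 11.2, 16.1 and 24.4 TPM in subclone 3 and at 12.8, 27.9, 18.2 and 21.6 TPM in subclone 5. The cilium and centrosome list had 8 of 56 loadings below 0, against 23.1% of all genes, and with equal medians 25 of 56 against 50.1%. Its swing was 0.098, against 0.033 in subclones 1, 2 and 4. The swings were 0.060 and 0.018 with the length trend removed, and 0.038 and 0.021 under quantile normalization. Cep250, a centrosomal linker, was at 23.4, 11.9, 14.8 and 23.0 TPM in subclone 3 and at 11.1, 20.8, 14.8 and 16.3 TPM in subclone 5. The splicing factors as a list had a swing of 0.047, against 0.045 in subclones 1, 2 and 4. Under quantile normalization the swings were 0.12 and 0.048. Their most spread member was Srrm2, a long serine and arginine rich protein. Srrm2 was at 169, 88.4, 121 and 192.18 TPM in subclone 3 and at 121, 200, 156 and 151 TPM in subclone 5.

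Lists of growth and stress genes had smaller swings than the ribosomal proteins, and several were wider in subclones 3 and 5 than in subclones 1, 2 and 4. Translation factors had a swing of 0.18, against 0.042 in subclones 1, 2 and 4. In the same order, the swings were 0.16 and 0.051 for ER chaperones, 0.15 and 0.054 for growth arrest and p53 targets, and 0.14 and 0.055 for the interferon response. They were 0.14 and 0.062 for NRF2 and antioxidant genes and 0.14 and 0.073 for heat shock proteins. Those of DNA replication were 0.083 and 0.037, and those of ribosome biogenesis 0.070 and 0.034. The swings lay closer for mitosis (0.088 and 0.064), aminoacyl tRNA synthetases (0.066 and 0.052), targets of the integrated stress response (0.038 and 0.032), cholesterol and fatty acid synthesis (0.072 and 0.073) and glycolysis and hypoxia (0.10 and 0.13). These values depended on the scaling. Under quantile normalization they became 0.050 and 0.033 for translation factors, 0.091 and 0.054 for ER chaperones, 0.13 and 0.066 for aminoacyl tRNA synthetases and 0.094 and 0.040 for the integrated stress response. Growth arrest and p53 targets kept 0.16 and 0.053 there, but had 0.052 and 0.028 with the length trend removed. Single members still followed the axis. Mki67, the Ki-67 antigen of cycling cells with a transcript of 10061 bases, was at 71.9, 42.8, 57.7 and 70.6 TPM in subclone 3 and at 46.9, 78.5, 64.3 and 72.8 TPM in subclone 5, and its SD off the axis was 0.040. Gpx4, a short antioxidant gene for a lipid hydroperoxide reductase, went the other way, at 555, 963, 751 and 649 TPM in subclone 3 and 884, 630, 798 and 645 TPM in subclone 5. Pole and Dnmt1 of the replication list, Slc7a1 of the integrated stress response and Ern1 of the unfolded protein response, with transcripts of 5870 to 7179 bases, were lowest in replicate 2 of subclone 3 and in replicate 1 of subclone 5. The replication-dependent histones could not be described as a list, since 6 of 68 passed the limit of 5 TPM.

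Immediate early genes and the mitochondrial genome did not follow length. The 31 immediate early genes all had a loading above 0, as did 7149 of all 9294 genes. With equal medians, 8 of 31 had a loading below 0, against 50.1% of all genes. Their swing was 0.30 in subclones 3 and 5 and 0.31 with the length trend removed, but it was also 0.22 in subclones 1, 2 and 4. Their list deviations were −0.025, −0.078, −0.12 and 0.20 in replicates 1 to 4 of subclone 3 and −0.026, 0.17, −0.021 and −0.12 in those of subclone 5, so they were highest in replicate 4 of the former and replicate 2 of the latter. Egr2, a zinc finger factor induced by growth factors, was at 10.3, 8.21, 8.36 and 16.5 TPM in subclone 3 and at 12.3, 29.7, 15.2 and 10.96 TPM in subclone 5. Fos, a subunit of the AP-1 factor, was at 83.3, 60.0, 61.3 and 148 TPM in subclone 3 and at 126, 215, 130.64 and 100.48 TPM in subclone 5. Arc, an activity-induced gene outside this list and named for its SD in both subclones, was at 52.6, 44.2, 39.1 and 106 TPM in subclone 3 and at 121, 266, 137.94 and 106 TPM in subclone 5. Over the 12 libraries of subclones 1, 2 and 4, Fos reached from 86.5 to 503 TPM and Egr2 from 10.6 to 80.0 TPM.

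The second component of the 8 libraries, at 9.01% of the variance, had nearly no relation to length (r = −0.016 across genes). Its correlation with GC content was r = 0.23, and with log2 TPM r = −0.052. When oriented so that immediate early genes loaded above 0, a loading above 0 was found for 30.5% of all genes, for 23 of 31 immediate early genes and for 11 of 12 genes of the mitochondrial genome. It was found for 1 of 28 antioxidant genes and 2 of 22 heat shock proteins. Its scores were highest in replicate 4 of subclone 3 (1.33) and replicate 1 of subclone 5 (1.28) and lowest in replicate 4 of subclone 5 (−1.54) and replicate 3 of subclone 3 (−1.28). The mitochondrially encoded genes had a swing of 0.37 in subclones 3 and 5 and 0.33 in subclones 1, 2 and 4. The swings were 0.55 and 0.38 with the length trend removed, 0.49 and 0.33 under quantile normalization, and 0.64 and 0.39 with log2 TPM as z-scores within each library. The list deviated by −0.27 in replicate 4 of subclone 5, and by 0.077 to 0.14 in the other 3 libraries of that subclone. Replicate 1 of subclone 5 turned from 0.089 to −0.13 with the length trend removed, next to −0.15 in replicate 4, and to −0.15 under quantile normalization. mt-Atp6, a subunit of ATP synthase, was at 5435, 4241, 5722 and 7681 TPM in subclone 3 and at 6835, 3627, 4880 and 5130 TPM in subclone 5. It overlaps mt-Atp8 and mt-Co3 in the genome, and nuclear copies of the mitochondrial genome share its sequence, so the division of reads between them is uncertain.

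The leading axis was alike in the 2 subclones. When the first component was taken in each subclone on its own, the loadings of subclones 3 and 5 correlated with r = 0.79 across the 9294 genes. The other 9 pairs of subclones had r between 0.18 and 0.53. Every axis was oriented so that longer transcripts load higher, so the sign of each r follows that choice. Subclones 3 and 5 were selected for wide spread, and their first components took more of the variance than those of the other subclones. The part of this selection in their higher r was not tested. The correlation between subclones 3 and 5 is a description across genes, which share library composition and length. It was 0.71 after each library's length trend was removed and 0.50 without the 2 lowest libraries. Loadings on the joint axis correlated with the axis of subclone 1 at r = 0.51, of subclone 2 at r = 0.36 and of subclone 4 at r = 0.48. The widest single libraries of subclones 1 and 4 had length contrasts of −0.10 and −0.17, of the same sign as the 2 lowest libraries of subclones 3 and 5 but smaller, while that of subclone 2 had −0.020. With the length trend removed, the median of each chromosome with at least 100 genes ranged over the replicates by 0.0049 to 0.063 in subclone 3 and by 0.0044 to 0.050 in subclone 5. Averaged over subclones 1, 2 and 4, these ranges were 0.0065 to 0.025.

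**Figure D4:**
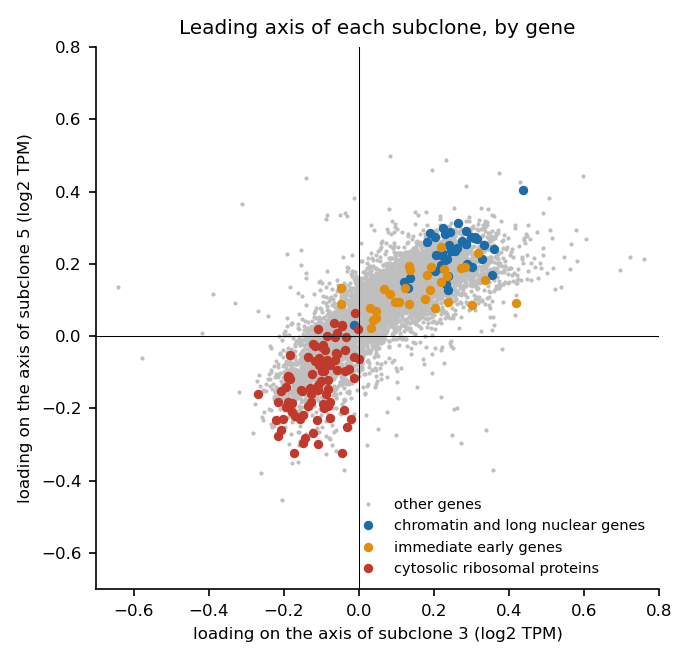
Loading of each gene on the first component of subclone 3 (x axis) and of subclone 5 (y axis), in log2 TPM per unit of score. Each point is 1 of 9294 genes, and r is 0.79. Ribosomal proteins (red) lie mostly below 0 on both axes, chromatin genes (blue) and immediate early genes (orange) mostly above 0.

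Among the genes with the largest excess of SD over subclones 1, 2 and 4, some followed the axis, such as D430042O09Rik, Huwe1, Sik2 and Nfat5, whose SDs off the axis were 0.27, 0.081, 0.14 and 0.13. Nfat5, the transcription factor of the response to hypertonicity in the renal medulla, was at 58.8, 28.8, 37.4 and 61.0 TPM in subclone 3 and at 33.99, 65.4, 43.5 and 50.9 TPM in subclone 5. Sik2, a salt-inducible kinase, was at 14.3, 9.67, 9.86 and 15.5 TPM in subclone 3 and at 7.04, 15.01, 11.6 and 13.5 TPM in subclone 5. Spaca6, which has a role in sperm and egg fusion, was at 28.1, 8.88, 15.8 and 34.5 TPM in subclone 3 and at 16.6, 25.5, 21.9 and 22.3 TPM in subclone 5, with a loading of 0.50 and an SD off the axis of 0.29. It overlaps the Mir99b, Mirlet7e and Mir125a genes. Sgk1, a kinase of sodium transport counted in both the hypertonicity and the immediate early list, was spread more widely in subclones 1, 2 and 4 (pooled SD 0.36) than in subclones 3 and 5 (0.29).

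Others stood out in a single library. Coq4, needed for coenzyme Q synthesis (chr2:29787493-29797935), had the largest excess, with an SD of 0.91 in subclone 3 and 0.17 in subclone 5. It was at 73.3 TPM in replicate 2 of subclone 3 and between 18.8 and 24.6 TPM in the other 7 libraries, and between 19.8 and 25.03 TPM in subclones 1, 2 and 4. Coq4 overlaps Trub2 on the opposite strand, and the sources used here do not say whether reads were counted by strand. Camk2d, a calcium/calmodulin-dependent kinase, was at 97.4 TPM in replicate 1 of subclone 3 and between 32.2 and 48.1 TPM in the other 7 libraries. Ndrg3, a member of the NDRG family, was at 43.4 TPM in replicate 4 of subclone 3 and between 19.3 and 27.1 TPM in the others.

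**Figure D5:**
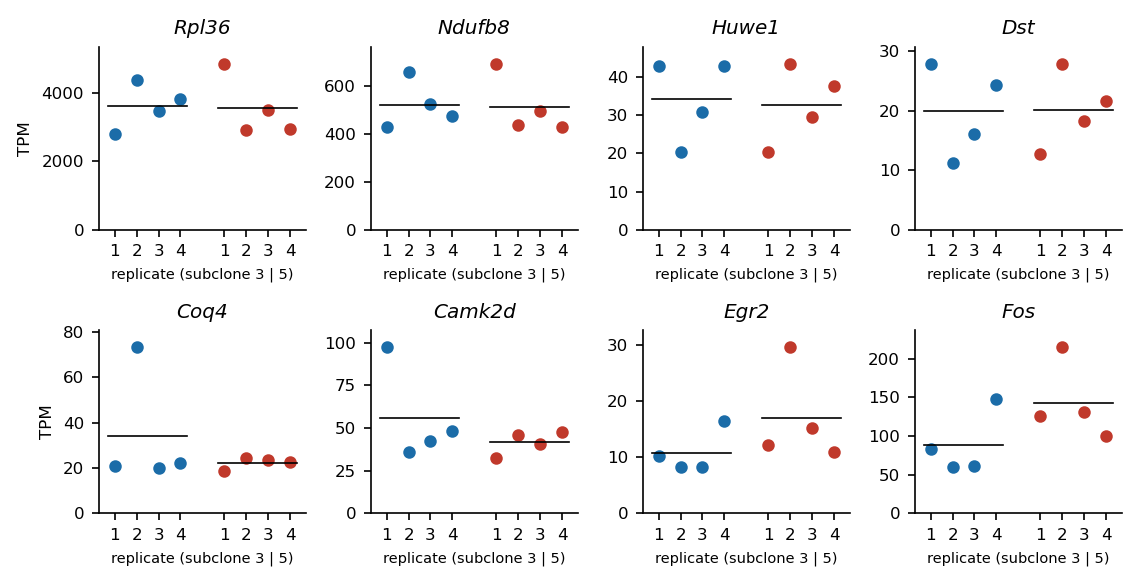
TPM of 8 genes (y axes, from 0) in each replicate (x axes) of subclone 3 (blue) and subclone 5 (red), with the mean of 4 replicates as a line. Rpl36 and Ndufb8 are highest and Huwe1 and Dst lowest in replicate 2 of subclone 3 and replicate 1 of subclone 5. Coq4 and Camk2d are set apart by 1 library at 73.3 and 97.4 TPM, and Egr2 and Fos are highest in replicates 4 and 2.

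Other genes with high loadings were Coro6, Ybx2, Zfp692, Mapk15 and Cep95, whose longest transcripts had 1673 to 2804 bases and were thus not long. In this order, their SDs off the axis were 0.41, 0.35, 0.22, 0.38 and 0.23, so part of their spread lay off it. Coro6, a coronin that binds actin, was at 14.8, 5.67, 7.83 and 21.2 TPM in subclone 3 and at 6.79, 13.8, 8.81 and 6.92 TPM in subclone 5. Among the lowest loadings, Fmc1, an assembly factor of ATP synthase, was at 97.8, 171, 112 and 132 TPM in subclone 3 and at 168, 75.8, 113 and 78.4 TPM in subclone 5. E030030I06Rik had its low loading from a single value of 21.4 TPM in replicate 2 of subclone 3, and it was more widely spread in subclones 1, 2 and 4, from 5.17 to 109 TPM.

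Replicate number was tested on its own. A limma model had subclone and replicate number as factors. In it, 0 of 9294 genes, or 0%, differed by replicate number at an adjusted p below 0.05. An unadjusted p below 0.05 was found for 101 genes, or 1.09%, under the share of 0.05 that no effect would give. The 2 lowest libraries have different numbers and add to the variance this model leaves unexplained, which limits what it can find. With them left out, 0 genes passed and 1096, or 11.8%, had an unadjusted p below 0.05. With subclones 1, 2 and 4 only, 0 passed and 272, or 2.93%, had such a p. No conclusion on replicate number is drawn from the count of 0. No other tool was run on this comparison.

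The expression files give no read depth, so counting error could not be set beside these SDs. The number of genes above 0 TPM was between 16482 and 16997 in the libraries of subclones 3 and 5. It was 16570 in replicate 2 of subclone 3 and 16501 in replicate 1 of subclone 5, and these were the lowest values of subclone 3 and the second lowest of subclone 5. Their part in the length axis was not tested.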

How the data were processed

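The authors aligned reads to GRCm38 with STAR 2.7.3a and computed TPM with RSEM 1.3.1 (per the labels and methods), and the deposited tables hold these TPM values and no counts. CASAVA 1.8 is also named in the submitters' processing notes. Monoclonal lines were read as paired ends and polyclonal cells as single ends, and the tables were compared only side by side. TPM was taken as log2 without a pseudocount for protein-coding genes with 5 TPM or more in all 20 subclone libraries. Gene type, symbol, length and GC content came from GENCODE M21 (45143 of 45706 identifiers matched), which is not the annotation release used upstream. The SD was computed over 4 replicates, and axes by singular value decomposition of deviations from each subclone's mean (NumPy 2.4.6). A lowess curve (fraction 0.3, statsmodels 0.14.6) removed trends on length or GC content. limma 3.58.1 in R 4.3.3 tested replicate number with Benjamini-Hochberg adjustment. Scripts were tested on simulated data. Genes were named by a rule: the 12 largest excesses of SD, the 8 highest and 8 lowest loadings, the 2 most spread members of each list, and the genes next to the TPM limit. Arc and Lars2 were named after their values were seen. The subclones, the 31 lists and the rule were chosen with earlier results of these data known. Same-numbered replicates of different subclones had correlations of their deviations from −0.75 to 0.55 (r above 0.1 in 16 of 40 pairs, median 0.037). These pairs include the 2 lowest libraries, which have different numbers. The numbers were not treated as pairs.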

Additional observations from a re-analysis of the deposited data

Results flagged for a closer look

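Within groups of 4 libraries, a value was singled out when its gap to the nearest other value was a larger part of the range than Dixon's critical value at 95% for 4 samples. Of 240 sets of 4 examined in subclones 3 and 5, 10 or 4.17% passed. Many of these sets came from 79 genes named for their spread or loading in these same libraries. The rate of 1 in 20 for unselected sets therefore does not apply, and the count is not compared with chance. None of the library measures (ribosomal protein share, length contrast, axis score) passed.

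In replicate 2 of subclone 3, Coq4 was at 73.27 TPM (nearest other 22.03), E030030I06Rik at 21.38 TPM (7.47), and Iars, the isoleucyl tRNA synthetase, at 40.84 TPM (53.19). In replicate 3 of that subclone, the translation factor Eif1ax was at 113.27 TPM (77.53). In replicate 4, Ndrg3 was at 43.44 TPM (22.59). In replicate 1 of subclone 5, Efcab7 was at 40.02 TPM (22.96) and the tubulin and actin cytoskeleton list deviated by −0.044 (0.011). In replicate 2 of subclone 5, the mitochondrial ribosomal gene Mrpl2 was at 183.95 TPM (130.55) and the NRF2 and antioxidant list deviated by −0.067 (0.013). In replicate 4 of subclone 5, the mitochondrial genome list deviated by −0.27 (0.077), and by −0.15 (−0.13) with the length trend removed.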

How the results depend on the processing

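The spread ratio of 1.65 lay between 1.04 and 1.81 over 36 alternatives. It was 1.04 without the 2 lowest libraries, chosen after seeing the data, and 1.32 to 1.81 with single libraries left out, with the lowest value when replicate 1 of subclone 5 was left out. The count of 4 genes with an SD of 0.5 or more in both subclones was 2 with a pseudocount of 1, 18 with a TPM limit of 1, 26 at an SD of 0.4, 1 at an SD of 0.6 and 3 to 11 with single libraries left out. The length swing of 0.51 was 0.23 without the 2 lowest libraries and 0.36 to 0.51 with single libraries left out. The ribosomal protein swing of 0.57 was 0.15 under quantile normalization, 0.23 without the 2 lowest libraries, 0.22 with the length trend removed and 0.38 to 0.57 with single libraries left out. The loading correlation of 0.79 was 0.50 without the 2 lowest libraries and 0.61 to 0.82 with single libraries left out. The joint axis share of 76.3% was 65.7% under quantile normalization, 59.1% without the 2 lowest libraries, 60.7% with the length trend removed and 70.2% to 80.1% with single libraries left out. The cause of these shifts was not tested. With a replicate block, the ratio was 1.58, the count 4, the length swing 0.51, the ribosomal protein swing 0.55, the loading correlation 0.83 and the axis share 77.1%. The count of 0 genes that differ by replicate number was 0 in all 27 alternatives, with the smallest adjusted p between 0.24 and 0.9999. As stated above, no conclusion on replicate number is drawn from it.

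Some list deviations changed sign under quantile normalization. In replicate 2 of subclone 3 and replicate 1 of subclone 5, heat shock proteins turned from 0.061 and 0.043 to −0.049 and −0.091, and DNA replication from 0.067 and 0.020 to −0.033 and −0.035. TPM holds no depth, and transcript length was that of the longest annotated transcript and not of the expressed one. With 4 replicates per line, each result rests on few libraries.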
